A study of Mus musculus with 6 samples.

Results

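Potassium channel genes were taken as every gene of the deposited table whose symbol starts with Kcn, a subunit stem and a number, leaving out antisense and overlapping transcripts, which removed Kcnq1ot1. This gave 47 of the 14291 genes analysed. The GENCODE M21 annotation holds 93 symbols that meet the same rule, and the other 46 were not analysed here. The table held genes above a low expression level only, so the 47 had all passed a filter on low values. By symbol stem, 22 encode voltage-gated pore-forming subunits, 8 auxiliary subunits of voltage-gated channels, 5 inward rectifiers, 5 two-pore-domain channels and 7 calcium-activated channels and their kin.

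The samples were 3 libraries of polyA-selected RNA from Prmt5 knockout mice, written Prmt5AKO in the labels, and 3 from wild-type mice carrying floxed Prmt5 alleles (Prmt5flox/flox), all from fat labelled epididymal white adipose tissue. The labels give no Cre driver, no target cell and no age, and nothing in them ties each library to a mouse of its own. The p-values thus measure library-to-library spread, part of which may be technical. Prmt5 encodes a methyltransferase acting on arginines, and the comparison asks which transcripts differ in fat when the gene is deleted. In whole tissue, fewer cells of a type and less RNA per cell cannot be told apart.

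Potassium channels let potassium leave a cell down its gradient and so set the resting voltage across the membrane. Voltage-gated channels open on depolarisation, inward rectifiers pass potassium best near rest, two-pore-domain channels carry a steady leak, and calcium-activated channels link membrane voltage to calcium inside the cell. In fat, the leak channel Kcnk3 has been studied in thermogenic adipocytes, where it opposes the depolarisation that admits calcium, and the vessels, nerves and immune cells of the tissue carry channels of their own.

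All pore-forming subunits share a short stretch of the pore, the selectivity filter, whose backbone strips water from potassium ions. The coding bases of this filter are shown for Kcnk3, Kcnh2 and Kcnj14, which are called below, and for Kcns3, the voltage-gated member with the highest mean level per length over the 6 libraries. Capitals mark the in-frame filter codons, searched on the coding strand as GGNTANGGN or GGNTTNGGN, which is a glycine codon on either side of a codon that starts with TA or TT; the patterns cannot overlap at one position. Sequences are those of the longest coding transcript of each gene in GENCODE M21 (GRCm38), 5′ to 3′.
Kcnk3, filter starting at codon 95: atcaccaccatcGGCTATGGTcatgcggcg
Kcnk3, filter starting at codon 201: ctcaccaccatcGGCTTCGGCgactatgtg
Kcnh2, filter starting at codon 628: ctcaccagcgtgGGCTTTGGCaatgtctct
Kcns3, filter starting at codon 372: atgaccacagtgGGCTATGGAgacacccac
Kcnj14, filter starting at codon 147: cagacgtccataGGCTATGGTgtgcgcagc
Codons are counted from the start codon. The pattern was present in 38 of 38 pore-forming members and in 0 of 9 auxiliary members, and 16.7% of the 21512 coding genes with a usable coding sequence hold it somewhere. It occurred at least 2 times in 4 of 5 two-pore-domain members, in 2 of 22 voltage-gated pore-forming members and in 1 of 5 inward rectifiers, against 3.21% of coding genes. A match describes the letters, need not be a filter, and was not tested against the expression values. Outside the two-pore-domain class, Kcna6 matched at codons 242 and 424, Kcnh4 at codons 54 and 441, and Kcnj2 at codons 29 and 144. A second match in these was not taken as a second filter.

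Prmt5 itself stood at 14.8, 22.4 and 28.5 CPM (library-scaled counts, with edgeR's TMM factors) in knockout replicates 1 to 3, against 37.5, 59.9 and 40.8 CPM in the wild type, with no overlap. For 14 members, exons overlap a gene on the opposite strand, and without knowing whether counting used strand, reads of the 2 genes cannot be told apart there. The libraries held 17489530 to 24454163 counts in knockout and 20746401 to 26403882 in wild type. The first principal component, 61.8% of the variance of log2 CPM, placed knockout replicate 1 and wild-type replicates 1 and 3 on one side and the other 3 libraries on the other. The genotype-only fit has genotype as its one term. The batch-term fit also parts replicate 1 of both genotypes from replicates 2 and 3, the grouping whose p-values match those in the authors' deposited table, and it is given beside the genotype-only fit wherever a gene's adjusted p over all 6 libraries is printed. Prmt5, at 47.5% of the wild-type mean in knockout, did not reach an adjusted p under 0.05 in either. Its log2 fold change was -1.10 with the batch term (adjusted p = 0.0913, edgeR) and -1.075 with genotype only (adjusted p = 0.467, edgeR). Adipocyte transcripts were abundant, with Adipoq at 3351 to 5513 CPM in knockout and 3478 to 4339 CPM in wild type. The 8 white adipocyte markers listed summed to 27110, 39010 and 35510 CPM in knockout and to 36140, 49220 and 41860 CPM in wild type, with overlap. Of these markers 5 lay above 0 in each fit. Cfd went the other way without overlap, at 4258 to 6419 CPM in knockout and 11610 to 16620 CPM in wild type. Xist, which is made from the inactive X chromosome of female cells, stood at 1044, 45.6 and 47.2 CPM in knockout and at 958, 106 and 510 CPM in wild type, which goes against a depot found in males. It was high in the same 3 libraries, 1 knockout and 2 wild type, that the first principal component set on one side. Of 5 sex-linked genes listed, Xist alone was among the genes analysed and the Y-linked genes of that list were not. The part of sex in the results was not tested.

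Of the 47 potassium channel genes, 3 were higher and 1 was lower in the knockout in the batch-term fit at an adjusted p under 0.05 (edgeR, quasi-likelihood F test, Benjamini-Hochberg over all genes). Kcnk3, Kcnh2 and Kcnj14 rose, and Kcnj15 fell. These 4 genes are 8.51% of the members, against 0.504% of all genes called in that fit (0.385% higher and 0.119% lower). The genotype-only fit called 0 members and 0% of all genes, and at an unadjusted p under 0.05 it held 7 members higher and 2 lower, 19.1% of the members against 8.63% of all genes (5.26% higher and 3.37% lower). The batch-term fit held 8 higher and 6 lower at that level, 29.8% against 24.5% (12.1% higher and 12.4% lower). The genotypes did not overlap for 12 members, 7 higher and 5 lower in the knockout, 25.5% of the members against 14.5% of all genes (8.32% higher and 6.2% lower). The same 4 members and no others were called by DESeq2 with genotype only, against 1.9% of all genes, by edgeR with the replicate number as a block, against 0.399%, and by the batch-term fit with offsets for length and GC, against 3.06%. DESeq2 with the batch term called 7 members, against 11.4% of all genes, and the genotype-only fit with the offsets called 0 members, against 0.119%. The family as a whole did not lean one way: 23 of 47 members lay above 0 in the batch-term fit (median log2 fold change -0.20, and -0.05 over all genes) and 23 in the genotype-only fit (median -0.04, and -0.02 over all genes). The 4 calls depended on single libraries. Without knockout replicate 2 the batch-term fit called 0 members, as it called 0 of all genes, and the other lost calls are given with each gene.

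**Figure D1:**
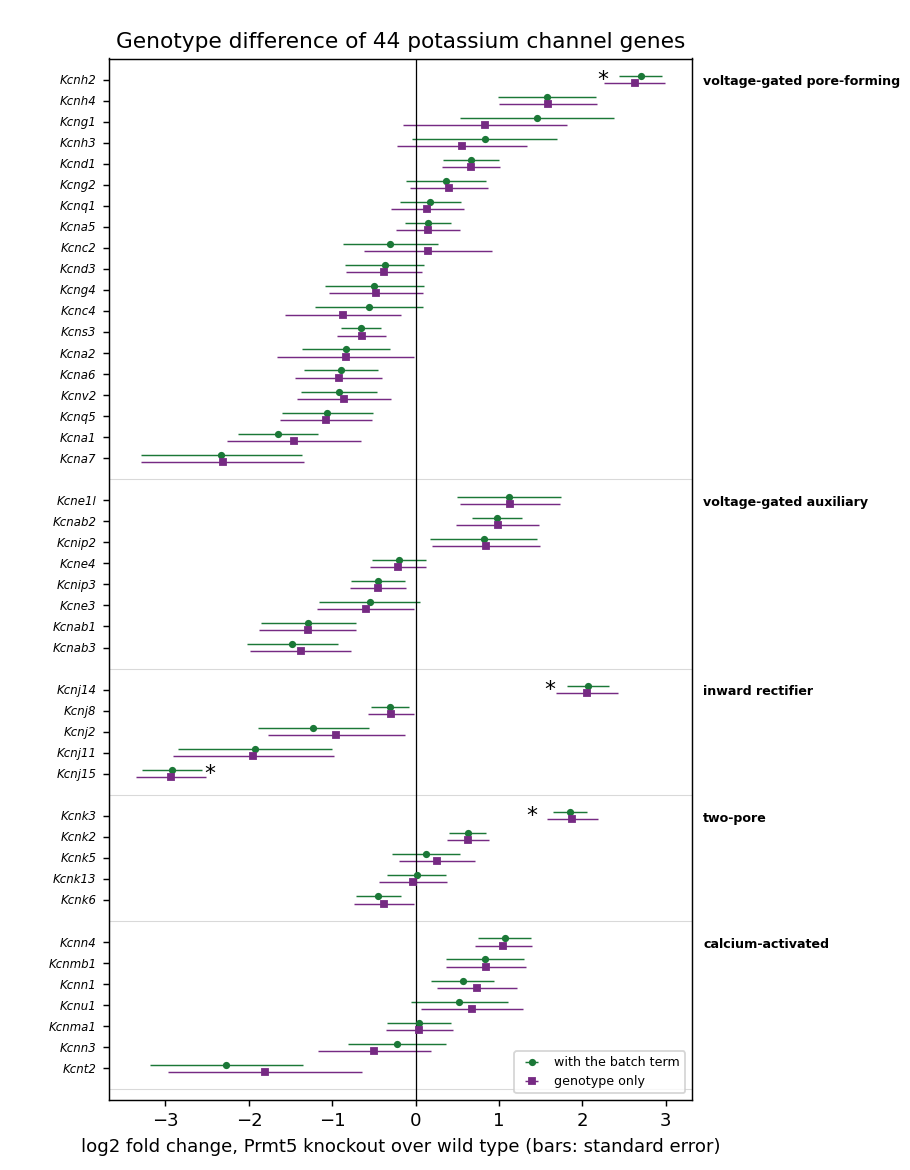
Log2 fold change of 44 of the 47 genes, Prmt5 knockout over wild type, by class, in the batch-term fit (circles) and the genotype-only fit (squares), with standard errors as bars and stars on the 4 genes called with the batch term. Kcnh2 has the highest value, 2.70, and Kcnj15 the lowest, -2.92, and the members of each class lie on both sides of 0.

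Per length, potassium channel transcripts were scarce beside other transcripts of the tissue. Their median level was 1.24 RPKM (CPM per kilobase of exon, mean of the 6 libraries), against 6.61 RPKM over all genes, and single members ran from 0.189 RPKM for Kcnn3 to 32.4 RPKM for Kcnk3. After Kcnk3 the order was Kcns3 at 12.96 RPKM, Kcnj8 at 11.4, Kcnj14 at 10.3 and Kcnh2 at 8.03, followed by Kcna5 at 6.70 and Kcnab2 at 6.29. The ranks of Kcnj14 and Kcnh2 differed between genotypes, since Kcnj14 averaged 16.6 ± 6.13 RPKM in knockout and 3.98 ± 1.06 RPKM in wild type, and Kcnh2 averaged 13.8 ± 2.41 RPKM in knockout and 2.24 ± 0.92 RPKM in wild type (SD, n = 3 each). In knockout, Kcnk3 at 51.0 ± 14.6 RPKM stood above the rest, and its mean ± SD did not meet that of the next gene. Below it came Kcnj14, Kcnh2, Kcnj8 at 10.2 ± 2.33 RPKM and Kcns3 at 10.1 ± 3.05 RPKM, neighbours whose mean ± SD overlapped. In wild type, Kcns3 at 15.8 ± 1.56 RPKM, Kcnk3 at 13.9 ± 1.79 RPKM and Kcnj8 at 12.6 ± 1.66 RPKM were the 3 highest, and neighbours in that order also overlapped.

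**Figure D2:**
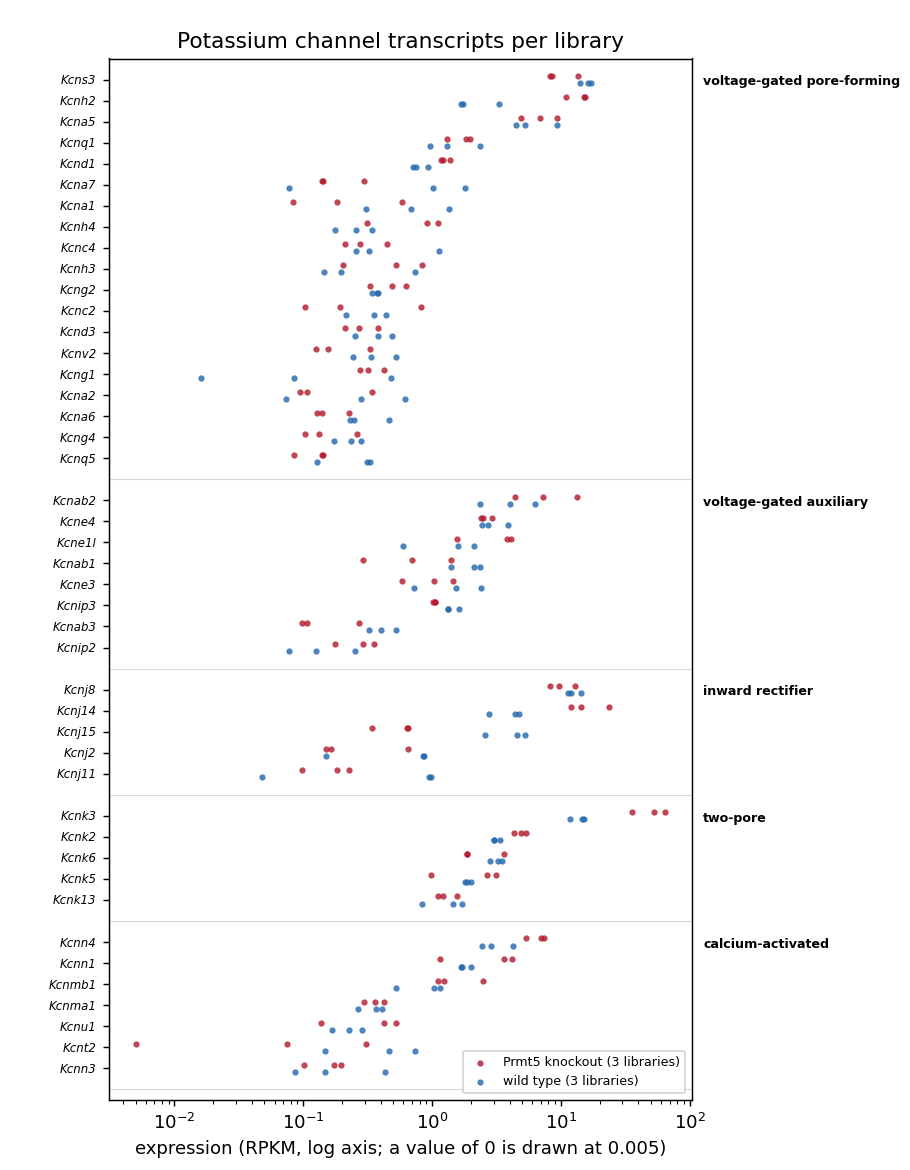
Level of 44 of the 47 potassium channel genes in RPKM on a log axis, 1 point per library, Prmt5 knockout above wild type within each row and genes ordered by their mean within each class. Kcnk3 lies farthest right at a mean of 32.4 RPKM, and the points of Kcnk3, Kcnh2, Kcnj14 and Kcnj15 part by genotype.

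Among two-pore-domain channels, Kcnk3 was the member that rose. It encodes an acid-sensitive leak channel (mm10, chromosome 5, 30588170 to 30625270). Its level was 135, 201 and 246 CPM in knockout replicates 1 to 3, against 45.04, 56.0 and 57.6 CPM in wild type, so the lowest knockout library was above every wild-type library. The means were 194 ± 55.5 and 52.9 ± 6.82 CPM (SD, n = 3 each), a 3.67-fold difference. Its log2 fold change was 1.85 (SE 0.20, adjusted p = 0.0183) in edgeR's batch-term fit and 1.88 (SE 0.31, adjusted p = 0.202) in the genotype-only fit. The log2 ratio was 1.59 within replicate 1 and 1.97 within replicates 2 and 3. The batch-term call was lost without knockout replicate 2 and without knockout replicate 3, with log2 fold changes of 1.72 to 1.98 over the 6 fits that leave out a library. Of its exonic length 6.01% overlaps Gm9899 on the opposite strand, which stood at 1.05 to 3.71 CPM in knockout and 0.857 to 1.79 CPM in wild type. The brown and beige adipocyte markers, 7 of 7 measured and 0 of them at 0, summed to 387 to 810 CPM in knockout and 106 to 313 CPM in wild type. The sums did not overlap, and 7 of 7 of these markers lay above 0 in the genotype-only fit and 6 in the batch-term fit. Vascular smooth muscle and pericyte markers, 10 of 10 measured and 0 of them at 0, summed to 1988, 3064 and 3985 CPM in knockout and to 1903, 1183 and 1509 CPM in wild type, also with no overlap. Of these 10 markers 7 lay above 0 in each fit, so the list did not move as one. Within the knockout, the smooth muscle sum had its lowest value in replicate 1 and its highest in replicate 3, as Kcnk3 did, and the brown and beige sum had the reverse order. Within the wild type, the brown and beige sum, at 106, 120.5 and 313 CPM, had the order of Kcnk3. The smooth muscle sum there was highest in replicate 1, where Kcnk3 was lowest. The part of either cell type in the Kcnk3 difference was not tested.

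The other two-pore-domain genes did not pass the adjusted threshold. Kcnk2, a leak channel opened by membrane stretch, stood at 22.0, 20.4 and 17.8 CPM in knockout and at 12.5, 14.0 and 12.5 CPM in wild type, and 11.6% of its exonic length overlaps an opposite-strand gene. The genotypes of Kcnk2 did not overlap, with a log2 fold change of 0.63 in the genotype-only fit (SE 0.25, unadjusted p = 0.0398, adjusted p = 0.567, edgeR) and 0.62 in the batch-term fit (adjusted p = 0.169, edgeR). Kcnk6 stood at 14.8, 7.61 and 7.62 CPM in knockout and at 14.2, 11.5 and 13.2 CPM in wild type, so that knockout replicate 1 was the highest library and the other 2 knockout libraries the lowest. Kcnk5, a leak channel sensitive to alkaline pH, ranged from 3.32 to 10.5 CPM in knockout, a range that holds all 3 wild-type libraries at 6.04 to 6.79 CPM. Kcnk13 ranged from 3.47 to 4.88 CPM in knockout and 2.62 to 5.28 CPM in wild type.

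**Figure D3:**
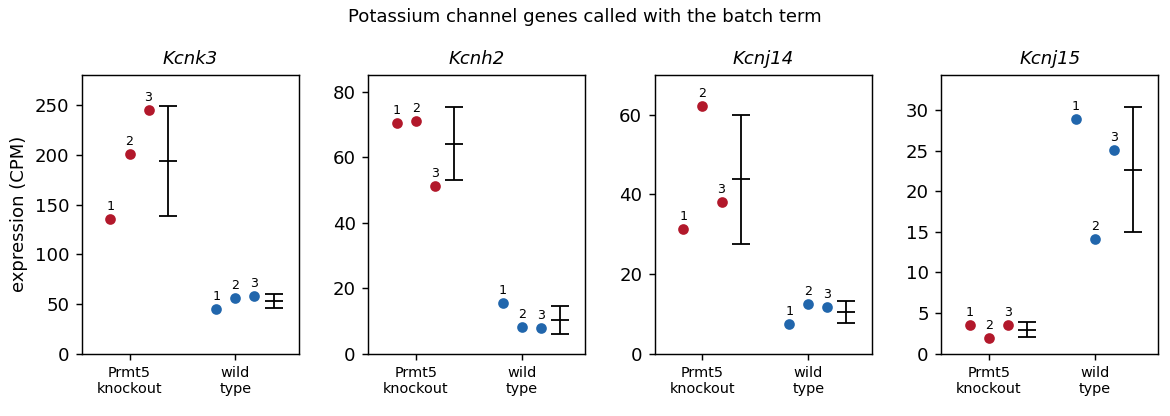
Expression in CPM of the 4 potassium channel genes called in the batch-term fit, Prmt5 knockout left and wild type right, with the replicate number at each point and the mean and SD of 3 libraries beside the points. The 3 knockout libraries lie above all wild-type libraries for Kcnk3, Kcnh2 and Kcnj14 and below them for Kcnj15.

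Among voltage-gated pore-forming genes, Kcnh2 rose. It encodes the channel that ends the action potential in heart muscle (mm10, chromosome 5, 24319589 to 24351604). Kcnh2 reached 70.4, 71.0 and 51.3 CPM in knockout, against 15.3, 8.10 and 7.74 CPM in wild type, with every knockout library far above the highest wild-type library. The means were 64.2 ± 11.2 and 10.4 ± 4.30 CPM (SD, n = 3 each), a 6.17-fold difference. Its log2 fold change was 2.70 (SE 0.26, adjusted p = 0.0130) in edgeR's batch-term fit and 2.63 (SE 0.36, adjusted p = 0.141) in the genotype-only fit. The log2 ratio was 2.20 within replicate 1 and 2.93 within replicates 2 and 3. The batch-term call was lost in 1 of 6 fits that leave out a library, that without knockout replicate 2 (adjusted p = 0.122, edgeR), with log2 fold changes of 2.48 to 2.95.

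The relatives of Kcnh2 were scarce. Kcnh4 stood at 3.47, 1.19 and 4.20 CPM in knockout and at 0.976, 1.28 and 0.670 CPM in wild type, with knockout replicate 2 among the wild-type libraries. The log2 fold change of Kcnh4 was 1.59 (SE 0.59, unadjusted p = 0.0281, adjusted p = 0.533, edgeR genotype-only fit) and 1.58 with the batch term (adjusted p = 0.176, edgeR). Kcnh3 ranged from 0.733 to 3.01 CPM in knockout and 0.521 to 2.62 CPM in wild type, and its log2 ratio was -1.84 within replicate 1 and 1.98 within replicates 2 and 3.

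Kcns3 encodes a subunit that forms no working channel alone and alters those it joins. Kcns3 stood at 26.0, 41.6 and 25.02 CPM in knockout and at 43.2, 52.6 and 49.4 CPM in wild type. The genotypes did not overlap, by a small margin between knockout replicate 2 and wild-type replicate 1, and the log2 fold change of -0.65 was not called in the batch-term fit (SE 0.24, unadjusted p = 0.0270, adjusted p = 0.175, edgeR) or the genotype-only fit (adjusted p = 0.572, edgeR).

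The shaker-type genes Kcna1, Kcna5 and Kcna6 lie side by side on chromosome 6, within 126532551 to 126740674 (mm10), and did not share a pattern. Kcna5, a channel of heart and vessel muscle, stood at 14.7, 20.6 and 28.2 CPM in knockout and at 13.4, 15.8 and 28.1 CPM in wild type, with replicate 3 the highest of each genotype (log2 fold change 0.15 in the genotype-only fit, and -0.059 once length and GC offsets were added). Kcna1, known from myelinated axons, stood at 5.28, 1.64 and 0.742 CPM in knockout and at 12.1, 2.77 and 6.18 CPM in wild type. The log2 fold change of Kcna1 was -1.65 in the batch-term fit (SE 0.48, unadjusted p = 0.00855, adjusted p = 0.129, edgeR) and -1.46 in the genotype-only fit (adjusted p = 0.593, edgeR). Schwann cell and neuron markers, 6 of 7 measured and 0 of those at 0, summed to 33.3, 24.1 and 18.4 CPM in knockout and to 47.4, 34.5 and 38.0 CPM in wild type. These sums put the libraries of each genotype in the same order as Kcna1, and their part in its difference was not tested. Kcna6 had its 3 knockout libraries, at 0.742 to 1.32 CPM, below the wild-type libraries at 1.34 to 2.71 CPM, with 40.3% of its exonic length overlapped by Gm26673 on the opposite strand. Kcna2, on chromosome 3, varied 8.29-fold between wild-type libraries and 3.64-fold between knockout libraries.

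Kcnd1 stood at 4.50, 4.65 and 5.24 CPM in knockout and at 2.71, 2.84 and 3.54 CPM in wild type (log2 fold change 0.66 in both edgeR fits, adjusted p = 0.592 with genotype only and 0.250 with the batch term). The genotypes of Kcnd1, which carries a fast, brief current, did not overlap, and it did not pass the adjusted threshold. Kcnq1, of the family behind slow repolarising currents, overlapped at 3.96 to 5.92 CPM in knockout and 2.93 to 7.17 CPM in wild type. A further 8, Kcnc2, Kcnc4, Kcnd3, Kcng1, Kcng2, Kcng4, Kcnq5 and Kcnv2, averaged 0.190 to 0.441 RPKM. Of these, 0 passed at an unadjusted p under 0.05 in either edgeR fit. Over all genes 24.5% did in the batch-term fit and 8.63% in the genotype-only fit. Over the whole class 10 of 22 members lay above 0 in the batch-term fit and 11 in the genotype-only fit, against 47.6% and 49.0% of all genes.

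Of 8 auxiliary genes of voltage-gated channels, 0 were called in either edgeR fit, against 0.504% of all genes in the batch-term fit. In that fit 2 had an unadjusted p under 0.05, Kcnab2 and Kcnab3, where 24.5% of all genes did, and in the genotype-only fit 0 did, against 8.63% of all genes. Kcnab2, a cytoplasmic beta subunit with an oxidoreductase fold, was the most abundant at 6.29 RPKM. Kcnab2 stood at 16.8, 27.7 and 50.3 CPM in knockout and at 8.92, 23.8 and 15.2 CPM in wild type, so that the genotypes overlapped (log2 fold change 0.97, SE 0.30, unadjusted p = 0.0114, adjusted p = 0.139, edgeR batch-term fit, and 0.98 with genotype only, adjusted p = 0.589). Knockout was higher within each replicate number, but the numbers do not pair the libraries. The related Kcnab1 and Kcnab3 lay the other way. Kcnab1 stood at 2.44, 1.00 and 4.90 CPM in knockout and at 8.21, 4.87 and 7.41 CPM in wild type, and the genotypes overlapped only in that knockout replicate 3 lay just above wild-type replicate 2. Kcnab3 stood at 0.684, 0.273 and 0.247 CPM in knockout and at 1.33, 1.01 and 0.819 CPM in wild type, with no overlap (log2 fold change -1.48, SE 0.55, unadjusted p = 0.0263, adjusted p = 0.173, edgeR batch-term fit, and -1.38 with genotype only, adjusted p = 0.572). Its 3 highest libraries were the wild-type ones, and knockout held 14, 6 and 5 counts. It may thus have passed the filter on low values through the wild type alone. That limits what its lack of overlap and its p-values can show.

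Kcne4, a single-pass subunit that inhibits several voltage-gated channels, stood at 7.23, 6.15 and 5.88 CPM in knockout and at 5.99, 6.74 and 9.56 CPM in wild type. Its log2 fold change of -0.21 in the genotype-only fit was 0.0018 without wild-type replicate 3. Kcne1l stood at 2.25, 5.88 and 5.54 CPM in knockout and at 3.06, 0.857 and 2.31 CPM in wild type, higher in knockout replicates 2 and 3 than in any other library. Kcnip3, a calcium-binding protein that escorts voltage-gated channels and also binds DNA, had knockout libraries at 3.61 to 3.78 CPM below wild-type libraries at 4.75 to 5.77 CPM (log2 fold change -0.45 in both edgeR fits, adjusted p = 0.380 with the batch term and 0.620 with genotype only). The other 2 auxiliary genes overlapped, Kcne3 at 1.00 to 2.49 CPM in knockout and 1.24 to 4.09 CPM in wild type and Kcnip2 at 0.440 to 0.890 CPM in knockout and 0.195 to 0.633 CPM in wild type.

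Inward rectifiers held a call in each direction. Kcnj14, one of the strong rectifiers (mm10, chromosome 7, 45816467 to 45824747), was measured at 31.4, 62.1 and 38.0 CPM in knockout and at 7.32, 12.6 and 11.7 CPM in wild type. The means were 43.8 ± 16.2 and 10.5 ± 2.81 CPM (SD, n = 3 each), a 4.17-fold difference, and replicate 2 was the highest library of each genotype. Its log2 fold change was 2.06 (SE 0.25, adjusted p = 0.0234) in edgeR's batch-term fit and 2.06 (SE 0.37, adjusted p = 0.260) in the genotype-only fit. Kcnj15, which is known from kidney and gut epithelium (mm10, chromosome 16, 95257558 to 95300258), was measured at 3.57, 1.87 and 3.46 CPM in knockout and at 28.9, 14.1 and 25.1 CPM in wild type. The means were 2.96 ± 0.95 and 22.7 ± 7.70 CPM (SD, n = 3 each), so that knockout held 13.1% of the wild-type level. The highest knockout library was below the lowest wild-type library, and 6.09% of its exonic length overlaps an opposite-strand gene. Kcnj15 had a log2 fold change of -2.92 (SE 0.36, adjusted p = 0.0234) in edgeR's batch-term fit and -2.93 (SE 0.42, adjusted p = 0.147) in the genotype-only fit. Within replicate 1 the log2 ratio was 2.10 for Kcnj14 and -3.02 for Kcnj15, and within replicates 2 and 3 it was 2.00 and -2.88. Both batch-term calls were lost without knockout replicate 1, without knockout replicate 2 and without wild-type replicate 1. Over the 6 batch-term fits with a library left out the log2 fold change was 1.84 to 2.25 for Kcnj14 and -3.22 to -2.69 for Kcnj15.

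Marker lists of other cells that fat can hold were summed beside Kcnj15. Epithelial markers, 3 of 7 measured and 0 of those at 0, summed to 4.15, 28.8 and 34.8 CPM in knockout and to 20.2, 26.3 and 12.3 CPM in wild type. Granulocyte markers, 6 of 7 measured and 0 of those at 0, summed to 11.4, 23.4 and 34.4 CPM in knockout and to 16.2, 81.2 and 65.5 CPM in wild type, and 1 of the 6 was called lower in the batch-term fit. Within that list, the eosinophil markers Ccr3, at 0.391, 1.73 and 3.07 CPM in knockout and 5.10, 12.5 and 24.3 CPM in wild type, and Siglecf, at 0.684, 0.957 and 1.09 CPM in knockout and 1.20, 6.35 and 8.71 CPM in wild type, did not overlap and were lower in the knockout, as Kcnj15 was. These 2 were picked after their values were seen, and of the 6 granulocyte markers 2 lay above 0 in each fit. Within the wild type, Ccr3 and Siglecf were lowest in replicate 1, where Kcnj15 was highest. The epithelial and the granulocyte sums both overlapped between genotypes, and the median log2 fold change of the granulocyte list was -1.01 in the batch-term fit. The part of these cells in the Kcnj15 difference was not tested.

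Kcnj8 and Kcnj11 encode the pores of channels closed by ATP, which open only beside a sulphonylurea receptor. Kcnj8, the form of vessel muscle and pericytes, stood at 17.98, 21.2 and 28.0 CPM in knockout and at 26.1, 31.6 and 24.7 CPM in wild type (log2 fold change -0.29, SE 0.28, adjusted p = 0.664, edgeR genotype-only fit, and -0.31 with the batch term, adjusted p = 0.396). Its receptor gene Abcc9 stood at 41.2, 10.3 and 8.36 CPM in knockout and at 63.3, 19.7 and 32.3 CPM in wild type, a wider spread than that of Kcnj8 and with replicate 1 highest in each genotype. Kcnj11 stood at 0.733, 0.319 and 0.593 CPM in knockout and at 3.06, 0.156 and 3.16 CPM in wild type, so that wild-type replicate 2 was the lowest of the 6 libraries. Kcnj2, a strong rectifier of muscle and vessels, stood at 3.52, 0.820 and 0.890 CPM in knockout and at 4.70, 0.818 and 4.62 CPM in wild type, high in 1 knockout and 2 wild-type libraries. Neither Kcnj11 nor Kcnj2 reached an unadjusted p under 0.05 in either edgeR fit.

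Of 7 calcium-activated genes and their kin, 0 were called in either edgeR fit, against 0.504% of all genes in the batch-term fit. Kcnn4, which encodes a calmodulin-bound channel of blood and immune cells, was the most abundant at 4.90 RPKM. Kcnn4 stood at 14.4, 11.0 and 15.03 CPM in knockout and at 4.97, 8.72 and 5.80 CPM in wild type, with no overlap. Kcnn4 had a log2 fold change of 1.07 in the batch-term fit (SE 0.31, unadjusted p = 0.00942, adjusted p = 0.132, edgeR) and 1.05 in the genotype-only fit (SE 0.34, unadjusted p = 0.0156, adjusted p = 0.478, edgeR). T and NK cell markers, 6 of 7 measured and 0 of those at 0, summed to 35.5, 29.5 and 88.8 CPM in knockout and to 11.9, 19.98 and 14.9 CPM in wild type. These sums did not overlap and put the libraries of each genotype in the same order as Kcnn4. All 6 markers lay above 0 in each fit. Macrophage markers, 7 of 7 measured and 0 of them at 0, summed to 1414 to 2183 CPM in knockout and 1133 to 1822 CPM in wild type, with overlap. Of these 7 markers 4 lay above 0 in each fit, and 1 was called lower in the batch-term fit. Their part in the Kcnn4 difference was not tested.

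The large-conductance channel of smooth muscle is built of Kcnma1 and the beta subunit Kcnmb1. Kcnma1 was level, at 3.32, 2.32 and 2.82 CPM in knockout and at 3.19, 2.10 and 2.90 CPM in wild type (log2 fold change 0.05, SE 0.40, genotype-only fit). Kcnmb1 stood at 5.23, 4.69 and 10.4 CPM in knockout and at 4.30, 2.18 and 4.84 CPM in wild type, and the genotypes overlapped (log2 fold change 0.84, SE 0.48, adjusted p = 0.604, edgeR genotype-only fit, and 0.83 with the batch term, adjusted p = 0.288). The smooth muscle and pericyte sum given beside Kcnk3 did not overlap between genotypes and had its maximum, like Kcnmb1, in knockout replicate 3. The other libraries differed in order. From knockout replicate 1 to 2 the sum rose and Kcnmb1 fell, and in wild type the sum was highest in replicate 1 and Kcnmb1 in replicate 3. The part of these cells in the value of Kcnmb1 was not tested. Kcnn1, a small-conductance channel, stood at 4.69, 16.8 and 14.7 CPM in knockout and at 6.75, 8.06 and 6.92 CPM in wild type, below every wild-type library in knockout replicate 1 and above them in the other 2. Kcnt2, a relative opened by sodium, had 0 counts in knockout replicate 2, 1.22 and 0.297 CPM in knockout replicates 1 and 3, and 2.93, 0.584 and 1.82 CPM in wild type. Its log2 fold change was -2.27 in the batch-term fit (SE 0.92, unadjusted p = 0.0384, adjusted p = 0.190, edgeR) and -1.81 in the genotype-only fit (adjusted p = 0.609, edgeR). Kcnu1, a channel of sperm, averaged 0.295 RPKM and Kcnn3 0.189 RPKM, and both overlapped between genotypes.

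Members followed the split of the libraries along the first principal component in smaller shares than all genes did. For 9 members (19.1%), Kcna1, Kcna2, Kcnc2, Kcnj2, Kcnj11, Kcnk6, Kcnma1, Kcnt2 and Kcnv2, the 3 highest libraries were knockout replicate 1 and wild-type replicates 1 and 3, the same 3 that stood apart on that component, as for 28.3% of all genes. For 4 members (8.51%), Kcnab2, Kcnn1, Kcnq1 and Kcnu1, they were knockout replicates 2 and 3 and wild-type replicate 2, as for 23.1% of all genes. Kcna7, a shaker-type channel, also turned on the library. It stood at 0.489, 0.501 and 1.04 CPM in knockout and at 3.55, 0.273 and 6.29 CPM in wild type, a 23.1-fold range among wild-type libraries (log2 fold change -2.33, SE 0.97, unadjusted p = 0.0427, adjusted p = 0.194, edgeR batch-term fit, and -2.31 with genotype only, adjusted p = 0.572). Without wild-type replicate 2 the batch-term fit also called Kcna7 lower. Skeletal muscle, where Kcna7 and Kcnj11 are known, left transcripts of its own: its markers, 5 of 5 measured, with Myh4 at 0 in wild-type replicate 2, summed to 310, 1053 and 1701 CPM in knockout and to 945, 143 and 2008 CPM in wild type. In wild type both genes and the markers were lowest in replicate 2. In knockout the marker sums lay within the wild-type range, Kcna7 was at most 1.04 CPM and Kcnj11 at most 0.733 CPM. Most of each knockout sum was Acta1, at 266, 1007 and 1216 CPM. It was also a large part of the wild-type sums, at 564, 140 and 983 CPM. Of the 5 muscle markers 1 lay above 0 in each fit, and their median log2 fold change was -1.44 in the batch-term fit. The part of muscle in the differences of Kcna7 and Kcnj11 was not tested.

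**Figure D4:**
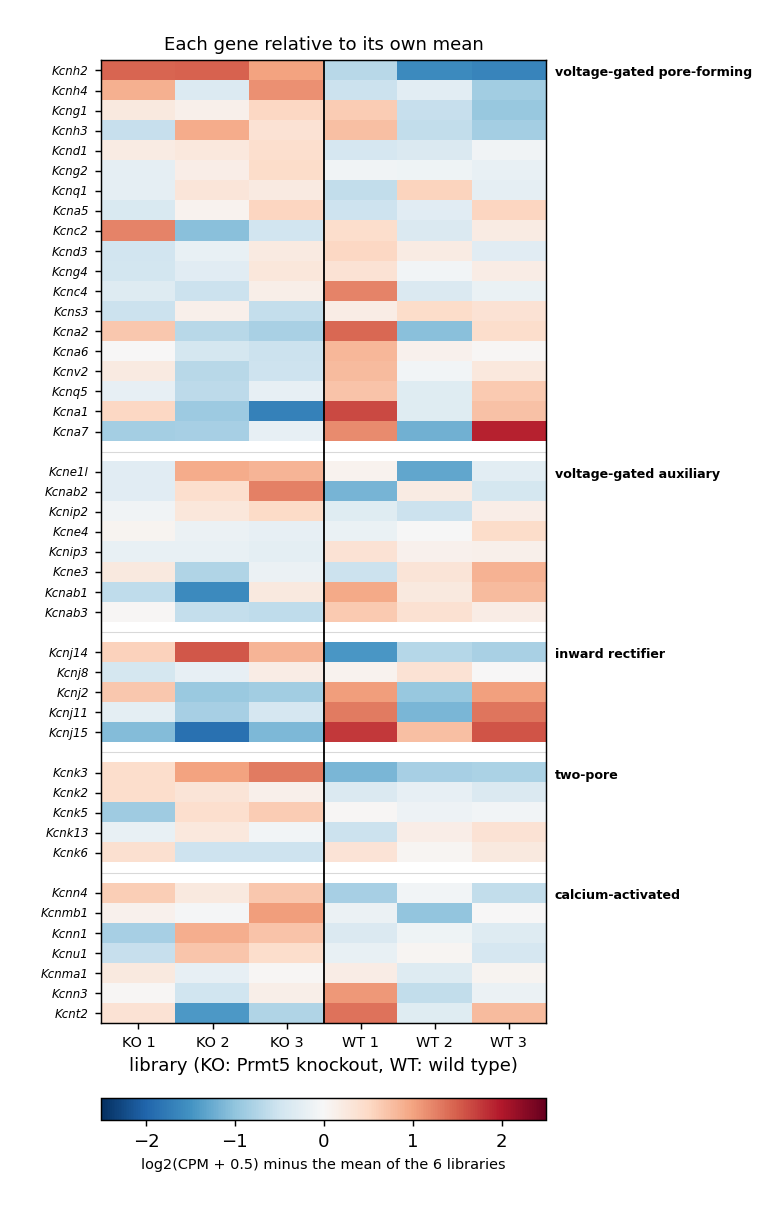
The same 44 potassium channel genes by library, as log2(CPM + 0.5) minus its mean over the 6 libraries, red above and blue below that mean, Prmt5 knockout replicates left of the line and wild-type replicates right. Kcnh2, Kcnj14 and Kcnk3 are red in all 3 knockout libraries and Kcnj15 is blue there, while Kcna2, Kcnj2 and Kcnt2 are red in knockout replicate 1 and wild-type replicates 1 and 3.

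Of the list of other potassium-handling genes, 26 of 37 symbols were analysed: channel partners, hyperpolarisation-gated and organelle channels, the sodium pump and cation-chloride cotransporters. Of these 0 were called in either edgeR fit, against 0.504% of all genes in the batch-term fit, and 12 of 26 lay above 0 in both fits (median log2 fold change -0.05 in the batch-term fit and -0.04 in the genotype-only fit). The most abundant per length at 311 RPKM, Fxyd1, a small regulator of the sodium pump, overlapped at 139.8 to 289.5 CPM in knockout and 148 to 299.7 CPM in wild type. The catalytic gene Atp1a4, known from sperm, stood at 4.69, 4.51 and 2.92 CPM in knockout and at 0.799, 1.17 and 1.04 CPM in wild type. The pump's beta subunit gene Atp1b1 lay the other way, at 8.75, 6.47 and 8.11 CPM in knockout and at 28.8, 11.7 and 22.1 CPM in wild type. The genotypes of both did not overlap, with a log2 fold change of 2.00 for Atp1a4 (SE 0.44, adjusted p = 0.0913) and -1.38 for Atp1b1 (SE 0.31, adjusted p = 0.0970) in edgeR's batch-term fit. In the genotype-only fit these were 2.00 for Atp1a4 (adjusted p = 0.349, edgeR) and -1.42 for Atp1b1 (adjusted p = 0.393, edgeR). The pacemaker-type channel gene Hcn4 stood at 1.03, 0.957 and 0.544 CPM in knockout and at 3.86, 1.64 and 1.34 CPM in wild type, also with no overlap (log2 fold change -1.30, adjusted p = 0.180, edgeR batch-term fit, and -1.43 with genotype only, adjusted p = 0.569). Dpp6, a partner of the Kcnd channels, stood at 1.66 to 3.46 CPM in knockout and 1.23 to 1.77 CPM in wild type, completing the 4 genes of the list that ranked first by p in that genotype-only comparison.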

How the data were processed

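RNA-seq of fat was analysed for 3 Prmt5 knockout and 3 wild-type libraries, grouped by sample title. The authors deposited raw counts per gene and library, with log2 RPKM values, a log2 fold change, a p-value and an adjusted p-value per gene, per the file headers. Tools and build in the submitters' processing notes are TopHat2, HTSeq (version 0.6.1) and mm10, listed without roles. Annotation, strand setting and filter: not given in the sources used here. No gene had a third-highest CPM under 0.606.

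Counts went into edgeR 4.0.16 (R 4.3.3) with TMM factors, filterByExpr, glmQLFit and glmQLFTest on genotype only, and Benjamini-Hochberg adjustment over 14291 genes. The standard error is the absolute fold change over the root of F. The batch grouping was inferred from the deposited p-values: setting replicate 1 apart came within a median absolute log10 difference of 3.05e-13, and other groupings or none within 0.184 to 0.269. The word batch is the submitters' name for the table, and its meaning was not stated. RPKM printed here is TMM-scaled CPM per kilobase of deposited exonic length.

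Alternatives were RLE size factors, 2 filters, DESeq2 1.42.0, limma-voom (limma 3.58.1), the batch term, the replicate block, loess offsets (span 0.5) for length and GC (GENCODE M21 transcripts, 96.5% of genes), an adjusted p under 0.1, and libraries left out. Full values are given for members called or with an unadjusted p under 0.05 in either fit, and for the 3 most abundant of each class by RPKM. For other members, values were given where they complete a channel or family, which was chosen after their values were seen. The members, classes, lists and tests were chosen with earlier results of these data known. A few members and sequences are not reported here, though counts over the members include them. The fits were tested on simulated data that held no batch effect and no split of the libraries. That test therefore cannot show which fit suits these libraries. Total counts ran from 17489530 to 26403882, so genes near 1 CPM rest on few reads.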

Additional observations from a re-analysis of the deposited data

How the results depend on the processing

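With genotype only, edgeR called 0 members higher, 0 lower, 0 of the potassium-handling list and 0 of all genes (1233 at an unadjusted p under 0.05), and limma-voom called 0 members. The batch term, the replicate block, the batch term with length and GC offsets, replicates 2 and 3 only, and DESeq2 each called 3 members higher and 1 lower, with 72, 57, 438, 50 and 271 of all genes in that order. DESeq2 with the batch term called 5 higher and 2 lower, adding Kcnab2, Kcnn4 and Kcna1, with 1565 of all genes. RLE size factors called 1 gene, the offsets alone 17 and an adjusted p under 0.1 gave 3, with 0 members called by RLE or offsets. Of the potassium-handling list, 2 were called with offsets and batch term, 2 by DESeq2 and 5 by DESeq2 with the batch term. With a library left out, members called higher ran from 0 to 3 and lower from 0 to 1 with genotype only (0 to 42 of all genes), and from 0 to 3 and 0 to 2 with the batch term (0 to 205 of all genes, with 29 without wild-type replicate 1 and 125 without wild-type replicate 2). Kcna5 changed sign with offsets (-0.059), with offsets and batch term (-0.038), and with a library left out (-0.11 to 0.53 with genotype only, and -0.060 without wild-type replicate 2 with the batch term). Kcne4 did so without wild-type replicate 3 (0.0018, and 0.0043 with the batch term), with leave-one-out values from -0.34 with genotype only and -0.46 with the batch term. The causes were not tested. The other 19 of 21 named members kept their sign in all 23 alternatives. Same-numbered libraries shared deviations at r = 0.638, 0.533 and -0.102, so the numbers do not pair them, and knockout replicate 3 correlated best with wild-type replicate 2 (0.44). The replicate block is thus only an alternative. The batch term sets wild-type replicate 3 with knockout replicates 2 and 3, yet it correlated at -0.148 and -0.102 with these and at 0.155 with knockout replicate 1. Deviations were taken from means of 3 libraries, so these correlations depend on one another. Depth limits members near 1 CPM.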
